A study of Homo sapiens with 4 samples.

Results

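The mRNAs described here encode 8 proteins of cholesterol and fatty acid synthesis, namely SREBF2, INSIG1, HMGCS1, FDPS, FDFT1, SQLE, FASN and SCD. They were chosen by gene name from tables that listed 34975 transcripts of 13300 gene names. The 8 genes had 39 of those transcripts, which were kept apart and were also summed per gene as a gene total. RNA immunoprecipitation sequencing (RIP-seq) was performed on HCCLM3, an established human hepatocellular carcinoma cell line, with an antibody against KIAA1429 in the KIAA1429-immunoprecipitated group (KIAA1429 RIP, 2 replicates) and with normal IgG in the control group (IgG RIP, 2 replicates). The labels give the cells no other treatment. The comparison asked which transcripts came down with KIAA1429 more than with the control antibody. KIAA1429, listed as VIRMA, is a subunit of the complex that methylates adenosines of mRNA to N6-methyladenosine (m6A).

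Cholesterol is built from acetyl-CoA through mevalonate, farnesyl pyrophosphate and squalene, and long-chain fatty acids are built from acetyl-CoA and malonyl-CoA. SREBP transcription factors switch on the enzymes of both routes. When sterols are plentiful, INSIG proteins hold the SREBP precursor and its escort SCAP in the endoplasmic reticulum, and the enzymes are transcribed less. The liver is a main site of both routes in the body.

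Values are FPKM, that is fragments scaled to transcript length and to the mapped fragments of the library, so levels of different genes were compared per length, and paired values of a group are given in the order of replicates 1 and 2. A library's listed FPKM summed to between 295573 and 340300, and between 26.6% and 32.2% of the listed transcripts were at 0. As no read counts entered the work, library depth is unknown and counting error is not given. The gene total of VIRMA itself was 18.0 and 10.01 FPKM in IgG RIP against 18.2 and 11.6 FPKM in KIAA1429 RIP, which is the mRNA and not the precipitated protein. Of 9 hepatocyte markers 9 were listed, with a summed level of 459 to 487 FPKM in IgG RIP and 399 to 444 FPKM in KIAA1429 RIP. Of 5 epithelial markers 4 were listed, with a summed level of 1290 to 1539 and 1510 to 1712 FPKM. That sum was nearly all keratins, with KRT18 alone at 820 to 879 and 1006 to 1048 FPKM. EPCAM was at 1.41 to 1.56 and 1.97 to 3.21 FPKM, and CDH1 was not among the listed genes. Of 6 leukocyte markers 2 were listed, with a summed level of 15.5 to 17.5 and 12.01 to 16.0 FPKM, most of it LYZ in every library, while PTPRC, the leukocyte marker CD45, was not among the listed genes. Of 7 fibroblast and endothelial markers only COL3A1 was listed, at 12.3 to 15.2 FPKM in IgG RIP and 7.46 to 12.3 FPKM in KIAA1429 RIP. The part of these markers in the results below was not tested.

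Because m6A is placed most often at the adenosine of the letters GGAC, the first GGAC after the stop codon is shown with its surroundings for 4 of the 8 mRNAs, as context for the RIP values below. Each stretch of 30 bases lies in the 3′ UTR of the member's most abundant transcript, is written 5′ to 3′ on the transcript strand, and has GGAC in capitals. The positions are chr17:80036905-80036934 on the minus strand for FASN, chr5:43290627-43290656 on the minus strand for HMGCS1, chr10:102121316-102121345 on the plus strand for SCD and chr22:42302022-42302051 on the plus strand for SREBF2 (GRCh37).
FASN-201: ggtcctgccggtgGGACcctgtccggccca
HMGCS1-202: aagaaaagagctgGGACaataaaacactgg
SCD-201: gcctacctaatgaGGACttcaagccccacc
SREBF2-201: ggctttctctgggGGACagcagtctctgag
The adenosine stood 100 bases after the stop codon in FASN, 592 in HMGCS1, 641 in SCD and 373 in SREBF2, and 129 in FDFT1 and 117 in SQLE, whose sequences are not shown. The letters were searched on the transcript strand alone, and GGAC cannot overlap itself. Over whole transcripts GGAC occurred 63 times in FASN-201 (7.44 per kilobase), 21 times in SREBF2-201 (4.01), 9 times in FDFT1-201 (4.42), 9 times in SCD-201 (1.72) and 5 times in INSIG1-201 (1.72), and the median over the 8 members was 3.18 per kilobase beside 3.61 over 9877 mRNAs, each the most abundant transcript of its gene. In FASN nearly all of the matches, 60 of 63, lay in the coding sequence, and in SCD 6 of 9 lay in the 3′ UTR. The first 200 bases after the stop codon held GGAC in 3 of the 7 members whose 3′ UTR was that long and in 51.2% of 8830 mRNAs. The 3′ UTR of INSIG1-201 held no GGAC, and FDPS-203 has no 3′ UTR in the annotation. A match is a run of letters and no measured m6A site.

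No member was called as precipitated more with the KIAA1429 antibody than with IgG. A gene was called at an adjusted p under 0.05 and a log2 fold change past 1 in size (limma on log2(FPKM + 1), two-sided, Benjamini-Hochberg over 11361 gene totals). By it, 0 of 8 members were called higher, beside 0% of all gene totals, and 0 of 8 were called lower, beside 0%. In simulated gene totals with the spread of these libraries, the same test called 0 of 200 raised by 2 on the log2 scale. The absence of a call therefore cannot decide whether a member differed by that much or less. The limma intervals of the members' log2 fold changes, given below, had -1.96 (SQLE) as lowest and 1.39 (FDPS) as highest bound. A difference of 2 in size thus lay outside the interval of each member. At an unadjusted p under 0.05 there were 0 of 8 members and 522 of 11361 gene totals (4.59%). The group mean was lower in KIAA1429 RIP for 7 of 8 members, beside 49.4% of all gene totals. The median log2 ratio of the group means was -0.32 over the members and 0.01 over all gene totals.

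The sign of that median turned when 1 control library, IgG RIP replicate 1, was left out. IgG RIP replicate 1 had the highest level of 6 of 8 members (30.7% of all gene totals were highest there), and KIAA1429 RIP replicate 2 had the lowest level of 5 of 8 (23%). Without IgG RIP replicate 1 the members' median log2 ratio was 0.03, and it was -0.59 without IgG RIP replicate 2, -0.48 without KIAA1429 RIP replicate 1 and -0.13 without KIAA1429 RIP replicate 2. Over all gene totals the median limma log2 fold change, a different measure, was 0.086, -0.082, 0.003 and 0.064 in the same order. Between libraries of the same number, 6 of 8 members were lower in KIAA1429 RIP at both numbers, beside 25.3% of all gene totals. Summed over the 8 genes, the level was 881 and 588 FPKM in the IgG RIP replicates and 702 and 581 FPKM in the KIAA1429 RIP replicates, or 0.298%, 0.186%, 0.208% and 0.171% of the library's listed FPKM. The first replicate was thus the higher in both groups, and this held for 6 of 8 single members and for 34.9% of all gene totals.

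**Figure D1:**
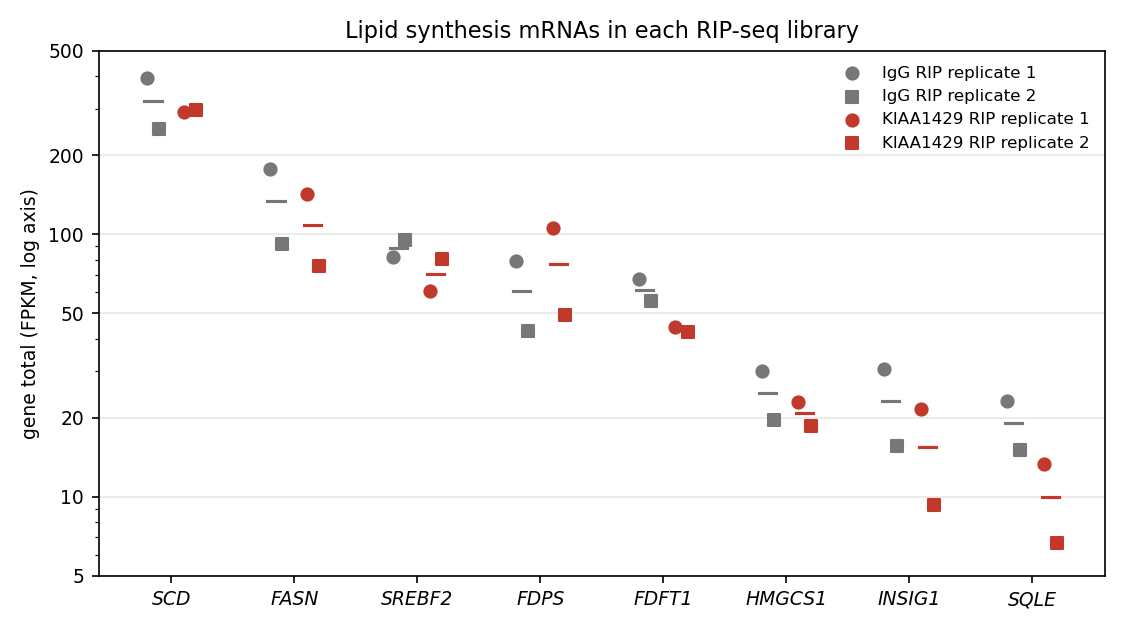
Gene totals of the 8 members in FPKM on a log axis, with 1 point per library (circles, replicate 1; squares, replicate 2; grey, IgG RIP; red, KIAA1429 RIP) and a short line at each group mean. SCD was the most abundant in every library, and the groups did not overlap for SREBF2, FDFT1 and SQLE, each lower in KIAA1429 RIP.

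The groups did not overlap for 3 of 8 members, all of them lower in KIAA1429 RIP, where 15.2% of all gene totals were lower without overlap. Of the 8, 0 were higher without overlap, where 16.6% of all gene totals were. For 1 gene, a two-sided exact permutation test of 2 libraries per group has 0.333 as its smallest p, so this count has no test of its own. No member's group means were 2-fold apart or more, beside 6.14% of all gene totals lower and 7.58% higher. The amount of an mRNA in the lysate and the share of it that was precipitated cannot be told apart from these libraries, since the RNA of the lysate before precipitation was not analysed here.

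Among the regulators, SREBF2 (ENSG00000198911, chr22:42229083-42303312) encodes SREBP-2, the transcription factor that mainly drives cholesterol synthesis. Its gene total was 81.9 and 95.03 FPKM in IgG RIP against 60.9 and 80.2 FPKM in KIAA1429 RIP. Both KIAA1429 RIP libraries were below both IgG RIP libraries, by a margin smaller than the difference between replicates. The log2 fold change was -0.33 ± 0.29 (SE, n = 2 per group; 95% interval -1.03 to 0.37, limma adjusted p = 0.998), and it was -0.14 without KIAA1429 RIP replicate 1 and -0.53 without KIAA1429 RIP replicate 2. INSIG1 (ENSG00000186480, chr7:155089486-155101945) encodes the endoplasmic reticulum protein that retains SCAP and the SREBP precursor. It was at 30.6 and 15.6 FPKM in IgG RIP against 21.6 and 9.28 FPKM in KIAA1429 RIP. The groups overlapped, and the first replicate was 1.96 times the second in IgG RIP and 2.32 times in KIAA1429 RIP. Between the groups the log2 fold change was -0.59 ± 0.50 (95% interval -1.78 to 0.60, limma adjusted p = 0.998). The value for INSIG1 was -0.13 without IgG RIP replicate 1, -1.05 without IgG RIP replicate 2, -1.16 without KIAA1429 RIP replicate 1 and -0.02 without KIAA1429 RIP replicate 2.

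Of the mevalonate enzymes, HMGCS1 (ENSG00000112972, chr5:43289497-43313614) encodes the cytosolic HMG-CoA synthase, which makes the substrate of HMG-CoA reductase. Its gene total was 30.1 and 19.6 FPKM in IgG RIP against 23.0 and 18.6 FPKM in KIAA1429 RIP. The groups overlapped, with IgG RIP replicate 1 above the other 3 libraries. The log2 fold change was -0.23 ± 0.35 (95% interval -1.05 to 0.60, limma adjusted p = 0.998), and it was 0.07 without IgG RIP replicate 1. FDPS (ENSG00000160752, chr1:155278539-155290457) encodes farnesyl pyrophosphate synthase, at the branch point to sterols and prenylated proteins. It was at 79.1 and 42.9 FPKM in IgG RIP against 105 and 49.3 FPKM in KIAA1429 RIP, so that both first replicates were above both second replicates. It was the single member with a higher mean in KIAA1429 RIP, with a log2 fold change of 0.30 ± 0.46 (95% interval -0.79 to 1.39, limma adjusted p = 0.998). The direction of FDPS turned when IgG RIP replicate 2 (-0.13) or KIAA1429 RIP replicate 1 (-0.24) was left out, and when the transcripts of type protein_coding alone were summed (-0.32).

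The 2 enzymes around squalene had 2 of the 3 gene totals without overlap. FDFT1 (ENSG00000079459, chr8:11653082-11696818) encodes squalene synthase, which joins a pair of farnesyl pyrophosphates in the first step committed to sterols. Its gene total was 67.4 and 55.4 FPKM in IgG RIP against 44.2 and 42.4 FPKM in KIAA1429 RIP. Both IgG RIP libraries were above both KIAA1429 RIP libraries, whose values were within 1.04-fold of each other. For FDFT1 the log2 fold change was -0.49 ± 0.28 (95% interval -1.16 to 0.18, limma unadjusted p = 0.129, adjusted p = 0.998). SQLE (ENSG00000104549, chr8:126010739-126034525) encodes squalene epoxidase, which catalyses a rate-limiting step after squalene. It was at 23.2 and 15.1 FPKM in IgG RIP against 13.4 and 6.65 FPKM in KIAA1429 RIP. The groups did not overlap, and the gap between IgG RIP replicate 2 and KIAA1429 RIP replicate 1 was smaller than the gap between the replicates of either group. SQLE had the lowest unadjusted p of the 8 members, with a log2 fold change of -0.91 ± 0.44 (95% interval -1.96 to 0.14, limma unadjusted p = 0.0789, adjusted p = 0.998). It was -0.46 without KIAA1429 RIP replicate 2 and -1.37 without KIAA1429 RIP replicate 1.

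Of the fatty acid enzymes, FASN (ENSG00000169710, chr17:80036209-80056208) encodes fatty acid synthase, which assembles palmitate. Its gene total was 177 and 91.7 FPKM in IgG RIP against 142 and 75.7 FPKM in KIAA1429 RIP. The groups overlapped, and the first replicate was 1.92 times the second in IgG RIP and 1.87 times in KIAA1429 RIP. The log2 fold change was -0.29 ± 0.44 (95% interval -1.34 to 0.75, limma adjusted p = 0.998), and it was 0.17 without IgG RIP replicate 1 and 0.15 without KIAA1429 RIP replicate 2. SCD (ENSG00000099194, chr10:102106881-102124591) encodes stearoyl-CoA desaturase, which makes monounsaturated fatty acids. It was at 392.4 and 252 FPKM in IgG RIP against 292 and 299 FPKM in KIAA1429 RIP. Both KIAA1429 RIP libraries lay between the IgG RIP replicates, and the log2 fold change was -0.09 ± 0.34 (95% interval -0.90 to 0.72, limma adjusted p = 0.998). The direction of SCD turned to 0.23 without IgG RIP replicate 1.

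**Figure D2:**
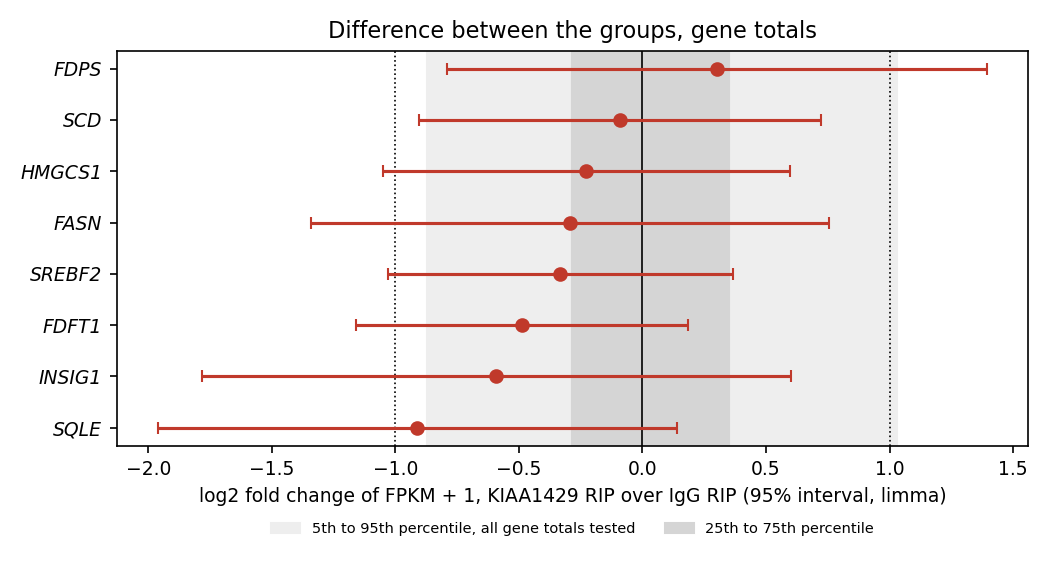
Log2 fold change of FPKM + 1 (KIAA1429 RIP over IgG RIP, limma) for the gene total of each member, with bars for the 95% interval, dotted lines at the fold threshold of 1 in size, and shading for the 5th to 95th and the 25th to 75th percentile of all gene totals tested. All 8 intervals crossed 0, and the estimates ran from -0.91 for SQLE to 0.30 for FDPS.

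Across the members the fold between the group means was 1.09 to 1.91, while the fold between replicates was 1.16 to 1.96 in IgG RIP and 1.02 to 2.32 in KIAA1429 RIP. For 4 of 8 members the log2 fold change was smaller in size than its standard error. The 5th and the 95th percentile of the log2 fold changes over all gene totals were -0.87 and 1.03, and 7 of 8 members lay between them, with SQLE just below. The 95% interval reached past a log2 fold change of 1 in size for 7 of 8 members, SCD being the exception, so that for those 7 a 2-fold difference lay within the interval.

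SCD was the most abundant of the 8 mRNAs per length and ranked 130 of 13300 gene totals by its mean over the libraries, followed by FASN at rank 340, SREBF2 at 568, FDPS at 673, FDFT1 at 954, HMGCS1 at 2420, INSIG1 at 2872 and SQLE at 3780. SCD alone held between 41.6% and 51.4% of the members' summed FPKM. The order of neighbours was clear beyond their ranges at 2 places. SCD was above FASN, and FDFT1 above HMGCS1, in all 4 libraries without overlap of their ranges. FASN was above SREBF2 in 2 of 4 libraries, and the ranges of the other neighbours overlapped.

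Within the gene total of FDFT1, the libraries differed in which transcript held the FPKM. FDFT1-201 (ENST00000220584) was at 4.398 and 1.69 FPKM in IgG RIP against 12.9 and 38.1 FPKM in KIAA1429 RIP. It held 6.53% and 3.04% of the gene total in IgG RIP, against 29.2% and 89.8% in KIAA1429 RIP. The other 8 FDFT1 transcripts together were at 63.0 and 53.7 FPKM in IgG RIP against 31.3 and 4.31 FPKM in KIAA1429 RIP. Neither sum overlapped between the groups, and the KIAA1429 RIP replicates differed from each other as well. The log2 fold change of FDFT1-201 was 2.61 ± 0.70 and did not pass (limma adjusted p = 0.808 over 23375 transcripts). Its rank as the most abundant FDFT1 transcript over the 4 libraries came from KIAA1429 RIP, where its mean was 25.5 FPKM, while its mean of 3.04 FPKM in IgG RIP was below the 20.7 FPKM of FDFT1-210.

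Among the other FDFT1 transcripts, FDFT1-210 (ENST00000525954) was at 26.1 and 15.4 FPKM in IgG RIP against 3.18 and 1.77 FPKM in KIAA1429 RIP, with a log2 fold change of -2.63 ± 0.50 (limma adjusted p = 0.615). FDFT1-217 was at 10.1 and 7.75 FPKM in IgG RIP against 0.208 and 0 FPKM in KIAA1429 RIP. FDFT1-225 was at 11.1 and 3.45 FPKM in IgG RIP and listed at 0 in both KIAA1429 RIP libraries. These 3 were lower in KIAA1429 RIP without overlap and none passed (adjusted p = 0.587 for FDFT1-217 and 0.819 for FDFT1-225, limma). FDFT1-208 was at 0.981 and 20.9 FPKM in IgG RIP against 2.19 and 2.53 FPKM in KIAA1429 RIP, so its group difference rested on IgG RIP replicate 2. In the annotation used here, GENCODE lifted to GRCh37, FDFT1-201 and FDFT1-210 share 1513 bases, 74.3% of the former and 80.1% of the latter. They differ by their first exons and by 331 bases at the 3′ end of FDFT1-201. Other pairs were more alike in that annotation, where FDFT1-217 holds 99.1% of the bases of FDFT1-201 and FDFT1-225 holds 90.6%. The deposited FDFT1-217 ends at chr8:11679327 and the annotated one at chr8:11696806. Its 99.1% therefore does not describe the transcript that had the FPKM values given above. Of the annotated FDFT1-201, 18 bases (0.885%) are in no other listed FDFT1 transcript found there. The deposited FDFT1-201 starts at chr8:11660120 and the annotated one at chr8:11660250, so this number may not hold for the deposited transcript. How far shared bases moved FPKM between these transcripts was not tested.

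The share of a gene's FPKM that would have to pass between its transcripts to turn one library into another was computed for each pair of libraries. For FDFT1 it was 36.3% within IgG RIP and 61.7% within KIAA1429 RIP, and it was 63.4% to 87.8% for the 4 pairs across groups. Every pair across groups thus differed more than either pair of replicates, narrowly so for the lowest. This held for 1 of the 7 members with several transcripts and for 7.65% of 7580 such genes. For the other 6 members the pairs across groups and within groups overlapped, at means of 45.1% and 40.8% for FDPS, 53.0% and 50.1% for INSIG1 and 29.7% and 51.1% for FASN. Over all 7580 genes the median was 33.1% across and 31.8% within groups.

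**Figure D3:**
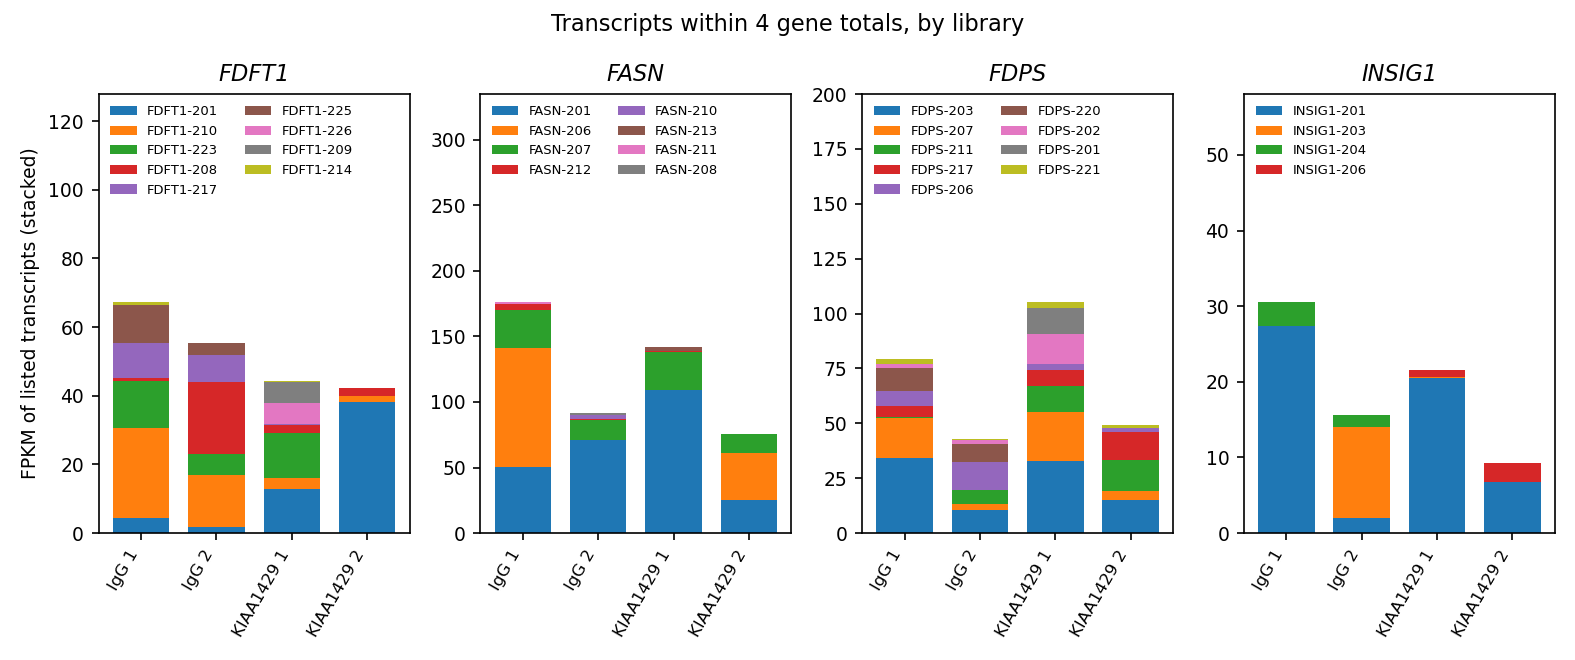
FPKM of the listed transcripts stacked within the gene totals of FDFT1, FASN, FDPS and INSIG1, with 1 bar per library and an axis of its own for each gene. FDFT1-201 (blue, left) held 29.2% and 89.8% of the FDFT1 total in KIAA1429 RIP and 6.53% and 3.04% in IgG RIP, while FASN-206 (orange) was listed at 0 in 1 library of each group.

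In FASN the libraries differed in this way between replicates of the same group. FASN-201 (ENST00000306749) was at 50.2 and 71.1 FPKM in IgG RIP against 109 and 24.99 FPKM in KIAA1429 RIP, and FASN-206 (ENST00000634990) was at 91.1 and 0 FPKM in IgG RIP against 0 and 36.2 FPKM in KIAA1429 RIP. FASN-206 was listed at 0 in the 2 libraries where FASN-201 was highest. All 8407 bases of FASN-206 are also in FASN-201, which is 8464 bases long in the annotation used here. FASN-207, a short transcript at the 5′ end of the gene, kept 16.4% and 16.2% of the gene total in IgG RIP, against 20.1% and 19.3% in KIAA1429 RIP. It was at 29.0 and 14.9 FPKM in IgG RIP against 28.5 and 14.6 FPKM in KIAA1429 RIP, so that the first replicates of the groups were alike and so were the second.

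In FDPS, the 6 transcripts of type protein_coding summed to 55.4 and 33.9 FPKM in IgG RIP against 64.2 and 18.3 FPKM in KIAA1429 RIP. The 3 of type processed_transcript, which the annotation gives no coding sequence, summed to 23.8 and 9.004 FPKM in IgG RIP against 41.2 and 31.0 FPKM in KIAA1429 RIP. This sum was higher without overlap. The share of such sums over all genes was not computed, and 15.2% of single transcripts were higher without overlap. Of the 3, FDPS-211 was at 0.254 and 6.26 FPKM in IgG RIP against 11.8 and 14.2 FPKM in KIAA1429 RIP (log2 fold change 2.21 ± 0.94, limma adjusted p = 0.879), and FDPS-217 at 5.20 and 0 against 6.95 and 12.8 FPKM (2.07 ± 1.01, adjusted p = 0.879). The most abundant, the protein_coding FDPS-203, was at 34.1 and 10.6 FPKM in IgG RIP against 32.9 and 15.3 FPKM in KIAA1429 RIP. FDPS-206 was at 6.95 and 12.7 against 2.72 and 1.85 FPKM, lower without overlap (-1.68 ± 0.53, adjusted p = 0.855). FDPS-220 was at 10.2 and 8.34 FPKM in IgG RIP, was listed at 0 in both KIAA1429 RIP libraries, and had the lowest adjusted p of the 31 member transcripts tested (limma, 0.575). FDPS-203 and FDPS-206 share 1140 bases, 90.8% and 96.8% of their lengths. FDPS-207, FDPS-211 and FDPS-217, the 3 of type processed_transcript, each have 0 bases that are in no other listed FDPS transcript. How far shared bases moved FPKM between the 2 types was not tested.

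In INSIG1 a single control library stood apart. INSIG1-201 was at 27.4 and 1.995 FPKM in IgG RIP against 20.6 and 6.72 FPKM in KIAA1429 RIP, and INSIG1-203 was at 0 and 12.02 FPKM in IgG RIP against 0.0720 and 0 FPKM in KIAA1429 RIP. IgG RIP replicate 2 thus had INSIG1-203 where the other 3 libraries had INSIG1-201. INSIG1-204 was at 3.15 and 1.62 FPKM in IgG RIP and listed at 0 in KIAA1429 RIP, and INSIG1-206 was listed at 0 in IgG RIP against 0.922 and 2.56 FPKM in KIAA1429 RIP. By INSIG1-201 alone the log2 fold change was 0.48 ± 1.22, the opposite sign to the gene total.

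The remaining members had a plainer makeup. SQLE-201 held 100%, 99.8% and 100% of the SQLE total in both IgG RIP libraries and in KIAA1429 RIP replicate 1, and in KIAA1429 RIP replicate 2 SQLE-206 held 41.8% (2.78 FPKM). SQLE-206 lacks 1089 bases of the first exon of SQLE-201. SREBF2-201 held between 83.1% and 100% of the SREBF2 total and was at 68.1 and 88.0 FPKM in IgG RIP against 60.9 and 80.2 FPKM in KIAA1429 RIP. The log2 fold change of SREBF2-201 was -0.15 ± 0.32 (limma adjusted p = 0.990). Its groups overlapped, whereas those of the gene total did not, since SREBF2-209 added 13.8 FPKM in IgG RIP replicate 1. SREBF2-203 added 6.94 FPKM in IgG RIP replicate 2, where SREBF2-201 alone was already above both KIAA1429 RIP libraries. HMGCS1-202 was at 17.1 and 8.06 against 8.51 and 11.1 FPKM and HMGCS1-201 at 11.9 and 10.6 against 13.4 and 7.45 FPKM, and all of these overlapped. SCD had a single listed transcript, SCD-201.

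Of the 39 member transcripts, 16 were above 0 in every library and 23 were listed at 0 in at least 1. Of the 31 with a mean of at least 1 FPKM, 0 were called, beside 0% of 23375 transcripts, with limma adjusted p from 0.575 to 1.00. At an unadjusted p under 0.05 (limma) there were 6 of 31, beside 5.36% of all transcripts. Of the 6, 4 belonged to FDFT1 and the others, FDPS-206 and FDPS-220, to FDPS. Transcripts of the same gene share bases, so the 6 are not separate observations. FDFT1-225 and FDPS-220 were at 0 in both KIAA1429 RIP libraries and reached the mean of 1 FPKM through IgG RIP alone. Group means were at least 2-fold higher in KIAA1429 RIP for 7 (19.9% of all transcripts) and lower for 13 (20.3%), and the groups were apart for 3 higher (15.2%) and 8 lower (14.5%).

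None of the other genes of the pathways passed the test. In all, 81 further genes were chosen for SREBP processing and sensing, the mevalonate pathway, the steps after squalene, fatty acid synthesis, and sterol uptake, storage and efflux. Of these, 73 were among the listed genes, 69 were tested and 0 were called by limma. At an unadjusted p under 0.05 there were 4 of 69, beside 4.59% of all gene totals. They were NR1H2, FADS2, KPNB1 and LPIN1, the last 2 named after their values were seen. Group means were lower in KIAA1429 RIP for 36 of 69, beside 49.4% of all gene totals, and the groups were apart for 9 higher, beside 16.6%, and for 7 lower, beside 15.2%. The median log2 ratio was -0.14 over 15 genes of SREBP processing, -0.03 over 8 of the mevalonate pathway, 0.13 over 10 after squalene, -0.10 over 25 of fatty acid synthesis and 0.04 over 11 of sterol transport. For fatty acid synthesis the median limma log2 fold change had the opposite sign, 0.08.

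Within SREBP processing, INSIG2, the homologue of INSIG1, was at 2.60 and 3.07 FPKM in IgG RIP against 4.05 and 5.72 FPKM in KIAA1429 RIP, with the highest log2 fold change of its list (0.61 ± 0.48). ERLIN1, an endoplasmic reticulum protein that binds SREBPs and INSIG1, was at 23.8 and 21.9 against 16.6 and 7.65 FPKM, the lowest of the list (-0.95 ± 0.42). KPNB1, the importin that carries SREBP-2 into the nucleus, was at 153 and 128 against 87.3 and 63.1 FPKM (-0.90 ± 0.30). The adjusted p of each was 0.998 (limma).

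In the mevalonate list, IDI1, isopentenyl diphosphate isomerase, was at 25.4 and 4.86 against 24.9 and 17.3 FPKM (log2 fold change 0.81 ± 0.68), and MVD, mevalonate diphosphate decarboxylase, was at 6.38 and 1.47 against 5.57 and 0.660 FPKM (-0.37 ± 0.84). The groups overlapped for all 8 genes of that list. After squalene, SC5D, the sterol C5-desaturase, was at 5.95 and 0.00102 against 6.18 and 6.56 FPKM (1.48 ± 0.89), so its difference rested on IgG RIP replicate 2, and DHCR7, which makes cholesterol from its last precursor, was at 36.8 and 23.7 against 32.5 and 16.6 FPKM (-0.33 ± 0.42). In fatty acid synthesis, FADS2, the delta-6 desaturase, was at 49.0 and 49.2 against 28.3 and 27.5 FPKM (-0.79 ± 0.28, limma unadjusted p = 0.0258), with close replicates and no overlap. HACD1, a dehydratase of very-long-chain elongation, was at 16.6 and 12.96 against 19.3 and 34.01 FPKM (0.77 ± 0.38). In sterol transport, NR1H2, the sterol-sensing nuclear receptor LXR-beta, was at 13.7 and 5.71 against 21.0 and 23.7 FPKM (1.23 ± 0.45, unadjusted p = 0.0291). VLDLR, a lipoprotein receptor, was at 6.70 and 4.97 against 3.35 and 1.68 FPKM (-0.99 ± 0.51), and LPIN1, a phosphatidate phosphatase, at 14.5 and 14.96 against 7.36 and 8.11 FPKM (-0.85 ± 0.35). None passed the adjusted threshold (limma adjusted p = 0.998 for each).

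**Figure D4:**
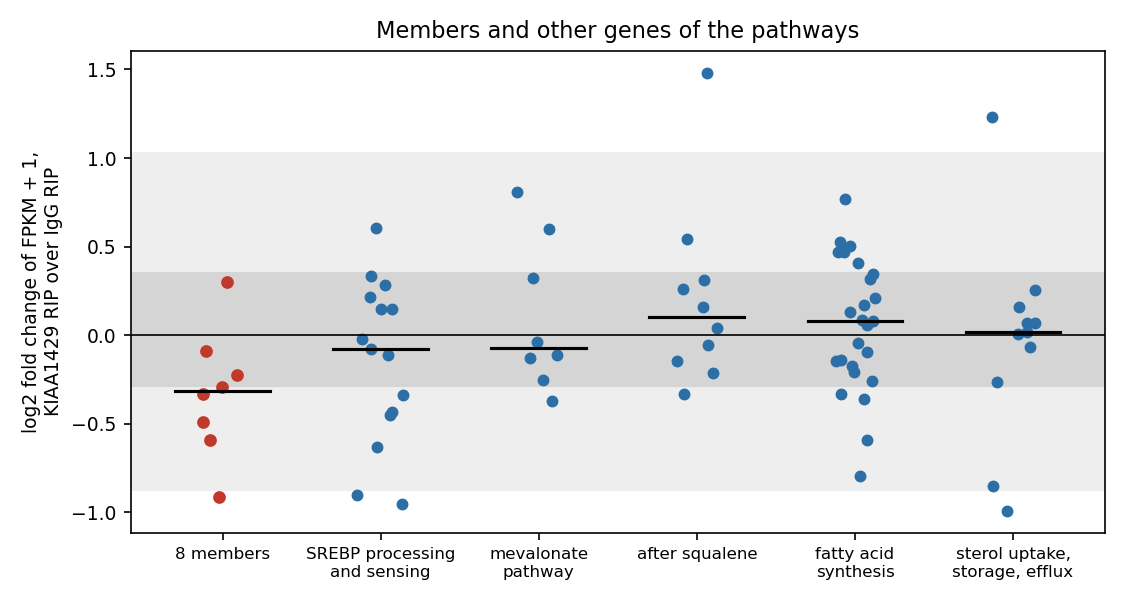
Log2 fold change of FPKM + 1 (KIAA1429 RIP over IgG RIP, limma) for the 8 members (red) and for the tested genes of 5 pathway lists (blue), with a line at each median and shading for the 5th to 95th and the 25th to 75th percentile of all gene totals tested. The members' median was -0.31, and the medians of the lists lay between -0.08 and 0.10.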

How the data were processed

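RIP-seq of HCCLM3 cells comprised 2 KIAA1429 RIP and 2 IgG RIP libraries, grouped by the labels. Nothing in the sources used here says that the replicates came from separate cultures, so p-values measure the spread between these libraries, which may be technical. From the precipitated poly(A) RNA the authors deposited FPKM values per transcript, scaled by transcript length and library, on GRCh37/hg19. The paper's methods name HISAT2 as the aligner, and the submitters' processing notes name Bowtie2 2.1.0. The tool that estimated FPKM and the annotation release are not given in the sources used here. Depth is unknown, and no reads were recovered, so precision was judged from the replicates.

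FPKM was summed per gene name. Features averaging 1 FPKM or more (11361 gene totals and 23375 transcripts) entered limma 3.58.1 (R 4.3.3) as log2(FPKM + 1), with lmFit, then eBayes with a trend. Tests were two-sided, and p was adjusted by Benjamini and Hochberg over each table. This scale understates differences of low genes. Count tests named in the study's methods were not run, because FPKM values are not counts. Counts, medians and figures were made with pandas 2.3.3, numpy 2.4.6 and matplotlib 3.10.9 (Python 3.11.15). In simulated gene totals with the spread of these libraries, limma called 0 of 200 raised by 2 and 178 of 200 raised by 4 on the log2 scale (9 false calls), and of simulated transcripts 0 of 200 raised by 4.

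Named are all 8 members, the most abundant transcript of each, each transcript with at least 10% of a group's gene total and a 2-fold or larger difference, and the highest and lowest gene of each pathway list. Further transcripts and genes were named after their values were seen. Members and lists were chosen with earlier results of these data known. Sequences, exons and coding regions came from GENCODE release 44 lifted to GRCh37, which held 36 of the 39 member transcripts and in which the ends of some differ from those in the deposited tables. Alternatives were pseudocounts of 0.1 and 0.01, no filter and a filter of 5 FPKM, median scaling, quantile normalization, limma without trend, the replicate block, the most abundant or protein_coding transcripts alone, and each library left out.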

Additional observations from a re-analysis of the deposited data

How the results depend on the processing

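Depth is unknown. With 2 libraries per group, limma called 0 of 200 simulated gene totals raised by 2 on the log2 scale at the spread of these libraries. At 0.1 times that spread it called 200 of 200. The simulation varied only the spread and the size of the raise, so other limits on detection were not tested. The number of gene totals called was 0 under 11 of 12 alternatives and 13 with the replicate block (12 higher, 1 lower, none a member, limma adjusted p of the members from 0.433 for SQLE to 0.978 for SCD). The number of transcripts called was 0 under all 12 alternatives, the replicate block included. The cause was not tested. Same-numbered libraries of the groups deviated together with a correlation of 0.187 over gene totals and 0.0299 over transcripts. The labels do not say what the number marks, and whether libraries of the same number share anything else was not tested. Of 112 alternative values of the 8 members, 103 kept the sign and 9 turned it, and none passed the threshold. With each library left out in turn, the members' median log2 ratio of -0.32 ranged from -0.59 to 0.029. The log2 fold change ranged from -0.52 to 0.068 for HMGCS1, from -0.76 to 0.17 for FASN (with 0.15 as the other value above 0), from -0.41 to 0.23 for SCD, from -0.24 to 0.84 for FDPS (with -0.13 as the other value below 0), from -1.16 to -0.02 for INSIG1, from -1.37 to -0.46 for SQLE, from -0.53 to -0.14 for SREBF2 and from -0.63 to -0.35 for FDFT1. By the most abundant transcript alone it was 0.48 for INSIG1 and 2.61 for FDFT1, and by protein_coding transcripts alone it was -0.32 for FDPS, as these alternatives leave out the other transcripts. FDFT1-201 is the most abundant through KIAA1429 RIP alone (58.9% of the mean gene total there and 4.95% in IgG RIP), so its sign follows from that choice and is no check of the gene total. The groups were apart for 3 members, for FDFT1 and SQLE alone (2) after median scaling by factors of 0.951 to 1.08 and, by the most abundant transcript, for SQLE (lower) and for FDFT1 (higher, by the choice of transcript).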

Other observations

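The gene totals most like the summed members over the 4 libraries, among 7515 with a mean of at least 5 FPKM, were those of AAR2, RBFOX2, ANKFY1, PRDX3 and FLNC. Their root mean square differences from the sum, as centred log2 values, were 0.0242 for AAR2, 0.0318 for RBFOX2, 0.0332 for ANKFY1, 0.0352 for PRDX3 and 0.0363 for FLNC, beside a median of 0.397. AAR2, a factor of U5 snRNP assembly, was at 13.4 and 8.65 FPKM in IgG RIP and at 10.3 and 8.45 FPKM in KIAA1429 RIP. PRDX3, a mitochondrial peroxiredoxin, was at 69.4 and 44.2 against 51.7 and 43.8 FPKM. FLNC, the muscle filamin, was at 78.4 and 49.0 against 60.5 and 48.8 FPKM. IgG RIP replicate 1 was the highest library for these genes, which follows from their choice, as it was the highest for the sum. SCD made up 41.6% to 51.4% of that sum. A likeness over 4 libraries is a description and has no test.

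Comparing libraries of the same number, 6 of 8 members were lower in KIAA1429 RIP at both numbers, beside 25.3% of all gene totals. FDPS was higher at both, and SCD was lower at number 1 and higher at number 2. The labels do not say that libraries of the same number are pairs, so these counts are a description and have no test.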
